A study of Homo sapiens and Mus musculus with 24 samples.

Results

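LNCaP cells grown with the fibroblasts that the labels call CRPCCAFs and given enzalutamide were compared with LNCaP cells grown alone and given the same drug. The members were chosen by group label and not by any measured value: 2 coculture libraries and 2 libraries of LNCaP alone, 4 of the 24 libraries of the series. LNCaP is a human prostate cancer line of epithelial type that needs androgen to grow well, genotype WT in the labels, and enzalutamide is an antiandrogen drug. All cells had 1 µM enzalutamide and were collected on day 7. Beside these stand 3 further pairs of libraries: LNCaP with CCAFs under 1 µM enzalutamide, LNCaP with CRPCCAFs under the solvent DMSO, and LNCaP alone under DMSO. The abbreviations are not spelled out, and the labels of these libraries give neither the donor animals of the fibroblasts nor whether they touched the LNCaP cells; the fibroblast samples that the series holds beside them are labelled Mus musculus. LNCaP is a single line and the labels speak of biological replicates without naming separate cultures, so p-values measure the spread between these libraries, which may be technical.

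Levels are RPKM, reads per kilobase of gene scaled to library size. The coculture libraries held 17850431 and 19609809 reads, against 20062559 and 22187880 reads for LNCaP alone under enzalutamide. Of 18 tested luminal epithelial markers, 18 were at 1 RPKM or more in coculture and 17 in LNCaP alone. EPCAM, an epithelial adhesion molecule, had 50.3 and 53.6 RPKM in coculture, against 51.9 and 53.2 RPKM in LNCaP alone, and the groups overlapped. Every ± below is the SD of 2 libraries.

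As background, androgen signalling turns on prostate genes such as the kallikreins, and antiandrogens lower these genes and slow proliferation. Fibroblasts can act on neighbouring epithelial cells through secreted cytokines, growth factors and matrix, which in epithelial cells feed into NF-kB, ERK and SMAD signalling. NF-kB, a family of transcription factors, drives chemokines, acute-phase proteins and its own inhibitors. Hypoxia-inducible factors drive glycolysis and angiogenesis genes, and the ERK kinases drive the immediate early genes.

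The coculture under enzalutamide differed from LNCaP alone under enzalutamide in 5788 of 16042 genes tested (36.1%), at an adjusted p under 0.05 in limma on log2(RPKM + 1). Of these, 2650 genes (16.5% of those tested) were higher in coculture and 3138 (19.6%) lower. The larger changes were mostly rises: 410 genes (2.56%) rose at least 2-fold on that scale and 57 (0.355%) fell at least 2-fold. That total, 467 genes, was 821 with a pseudocount of 0.1 in place of 1. The median log2 change of all genes tested was -0.029. Because 1 is added before the logarithm, log2 changes of scarce transcripts come out too small. The levels are shares of a library, so less RNA per cell and fewer cells of a kind cannot be told apart.

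Among the largest rises were genes of iron, haem and retinoid handling and secreted regulators. C8orf4, a positive regulator of Wnt signalling, had 64.0 and 63.1 RPKM in coculture, against 0.189 and 0.220 RPKM in LNCaP alone (log2 5.74, SE 0.0848, adjusted p = 2.0e-10). CP, the copper-carrying ferroxidase ceruloplasmin, had 71.5 RPKM in both coculture libraries, against 0.902 and 1.08 RPKM in LNCaP alone (72.0-fold, log2 5.19, SE 0.0721, adjusted p = 1.9e-10). Both coculture libraries lay far above both libraries of LNCaP alone for these genes, and the same held for those that follow. HMOX1, which breaks down haem, had 124 and 125 RPKM, against 6.41 and 6.25 RPKM (19.7-fold, log2 4.10). IGFBP5, a binder of insulin-like growth factors, had 22.9 and 21.5 RPKM, against 0.215 and 0.101 RPKM (log2 4.33). Neuromedin B, a small secreted peptide encoded by NMB, rose too, with 79.1 and 85.6 RPKM in coculture, against 2.41 and 3.32 RPKM in LNCaP alone (28.7-fold, log2 4.44). The remaining large rises included the scaffold gene AKAP12 (log2 3.76) and SDCBP2 (log2 4.81), the gene of syntenin-2. The readthrough gene FKBP1A-SDCBP2 (log2 4.59) shares sequence with SDCBP2, so the counting may have split or doubled their reads.

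**Figure D1:**
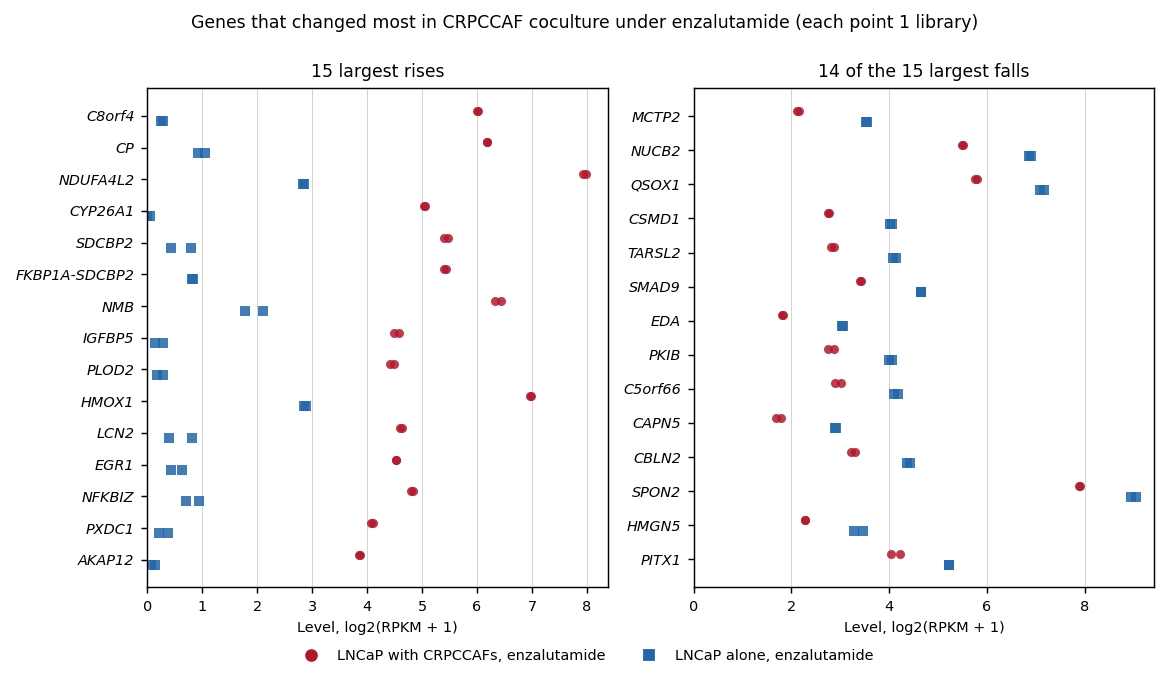
Levels of the 15 genes with the largest rises (left) and 14 of the 15 with the largest falls (right) in coculture under enzalutamide, on a log2(RPKM + 1) axis. Each point is 1 library, circles for LNCaP with CRPCCAFs and squares for LNCaP alone. For each gene the circles lie apart from the squares, and the rises, up to 5.74 on the log2 scale, exceed the falls, which reach -1.39.

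The largest falls were smaller and came from genes already well expressed. The scale fixes this in part, since on log2(RPKM + 1) a gene scarce in LNCaP alone cannot fall far. MCTP2, a calcium-binding membrane protein, had 3.44 and 3.34 RPKM in coculture, against 10.6 and 10.4 RPKM in LNCaP alone (3.10-fold lower, log2 -1.39, SE 0.0571, adjusted p = 1.1e-07). NUCB2, the calcium-binding precursor of nesfatin, had 44.5 and 44.0 RPKM, against 115.6 and 119 RPKM (2.65-fold lower, log2 -1.39). QSOX1, a sulfhydryl oxidase of the secretory pathway, had 54.9 and 53.3 RPKM, against 136 and 142 RPKM (2.56-fold lower, log2 -1.34). The groups did not overlap for any of the 3. SMAD9, a signal transducer of bone morphogenetic proteins, fell by 1.24 on the log2 scale, and SPON2, a secreted matrix protein gene and the most abundant of the 15 largest falls, fell by 1.12 to 235 and 238 RPKM in coculture, against 496 and 532 RPKM in LNCaP alone.

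Genes of hypoxia and glycolysis rose nearly throughout. This list and those below were written with earlier results of these data known, so their counts describe the lists and are no independent test. Of 36 genes listed, 34 passed the filter, 32 rose and 1 fell, beside 16.5% and 19.6% of all genes tested. The median log2 change was 1.49 beside -0.029 for all genes, and 3 of the 34 were under 1 RPKM in LNCaP alone. LDHA, the subunit of lactate dehydrogenase that favours lactate, had 767 and 759.9 RPKM in coculture, against 115 and 119 RPKM in LNCaP alone (6.53-fold, log2 2.70, SE 0.0397, adjusted p = 2.0e-10). PGK1, a glycolytic kinase that makes ATP, had 664 and 666 RPKM, against 122 and 124 RPKM (5.41-fold, log2 2.43). VEGFA, the angiogenic growth factor, had 94.1 and 93.5 RPKM, against 13.2 and 13.6 RPKM (7.01-fold, log2 2.72). All 3 genes stood above LNCaP alone in both coculture libraries, and for the 2 glycolytic genes the coculture also stood above the drug-free level of LNCaP alone: LDHA was at 202% and PGK1 at 283% of LNCaP alone under DMSO, whereas LNCaP alone under enzalutamide was at 31.0% and 52.4%. NDUFA4L2, a hypoxia-induced mitochondrial protein, averaged 247 ± 5.75 RPKM in coculture and 6.15 ± 0.0718 RPKM in LNCaP alone (log2 5.12). PLOD2, a collagen-modifying hydroxylase, had 21.5 and 20.3 RPKM, against 0.221 and 0.133 RPKM (log2 4.22). The exceptions were PFKM, the muscle form of phosphofructokinase, which fell (log2 -0.32), and CA12, a carbonic anhydrase, at 0.12 (adjusted p = 0.20). No oxygen measurement is in the labels.

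The promoters of LDHA and PGK1 are shown because the short core ACGTG or GCGTG, which hypoxia-inducible factors bind, lies in both. In the 250 bases before each start (RefSeq, GRCh38.p14, plus strand), capitals mark each match on either strand; LDHA is at chr11:18394313-18394562 and PGK1 at chrX:78103998-78104247. CACGTG reads alike on both strands and so counts on each.
LDHA: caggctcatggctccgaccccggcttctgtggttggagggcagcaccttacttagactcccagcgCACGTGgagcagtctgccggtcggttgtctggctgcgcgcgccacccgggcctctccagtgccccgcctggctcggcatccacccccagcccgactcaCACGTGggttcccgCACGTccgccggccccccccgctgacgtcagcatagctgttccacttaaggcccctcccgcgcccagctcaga
PGK1: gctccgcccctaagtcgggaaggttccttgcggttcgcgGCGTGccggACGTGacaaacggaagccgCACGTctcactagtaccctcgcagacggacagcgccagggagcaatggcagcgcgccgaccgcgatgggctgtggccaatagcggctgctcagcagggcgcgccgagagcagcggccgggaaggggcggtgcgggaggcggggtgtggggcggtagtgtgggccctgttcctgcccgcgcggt
LDHA had 5 matches, with overlapping ones counted, and PGK1 had 3. The motif is common: 20 of the 31 tested list members with a promoter in the table held it (64.5%), and so did 43.1% of all 27305 promoters searched.

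Most tested NF-kB targets and chemokines rose too. Of 40 genes listed, 25 passed the filter, 24 rose and none fell, beside 16.5% and 19.6% of all genes tested. The median log2 change was 1.30 (2.56 with a pseudocount of 0.1 in place of 1). Of those 25, 14 were under 1 RPKM in LNCaP alone under enzalutamide and passed the filter through other groups, so the count over the list is no independent sign of a rise. NFKBIZ, a nuclear IkB protein that is itself induced by NF-kB, had 27.6 and 26.7 RPKM in coculture, against 0.628 and 0.932 RPKM in LNCaP alone (34.8-fold, log2 3.99, SE 0.0960, adjusted p = 3.6e-09). LCN2, the iron-siderophore binder lipocalin 2, had 23.8 and 23.2 RPKM, against 0.765 and 0.319 RPKM (log2 4.0). IL32, a cytokine gene, had 12.4 and 12.3 RPKM, against 0.168 and 0.364 RPKM (log2 3.41). The coculture libraries agreed closely while the low libraries of LNCaP alone rested on 5 to 87 reads for these genes. CXCL8, the neutrophil chemokine interleukin 8, had 5.12 and 4.81 RPKM in coculture, from 317 reads, and 0.0875 and 0 RPKM in LNCaP alone, from 3 reads (ratio 119, with a 95% exact interval for counting error alone of 40.4 to 581). IL1B, the gene of interleukin 1 beta, had 4.85 and 4.69 RPKM, against 0.731 and 0.570 RPKM (log2 1.81). Better-expressed members rose less: NFKBIA, the main cytoplasmic inhibitor, had 78.4 and 81.6 RPKM, against 32.8 and 33.1 RPKM (2.43-fold, log2 1.25), and NFKB2, a subunit gene, rose by 0.81 on the log2 scale. CXCL16, a membrane-bound chemokine, had 17.9 and 18.5 RPKM, against 16.7 and 16.6 RPKM, and did not pass (adjusted p = 0.20).

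Promoters of 3 of these genes are shown for the NF-kB motif GGNNTTTCC, searched on both strands in the same 250 bases and set in capitals. NFKBIZ is at chr3:101827740-101827989, IL32 at chr16:3065153-3065402 and CXCL8 at chr4:73740319-73740568, all on the plus strand of GRCh38.p14 from RefSeq.
NFKBIZ: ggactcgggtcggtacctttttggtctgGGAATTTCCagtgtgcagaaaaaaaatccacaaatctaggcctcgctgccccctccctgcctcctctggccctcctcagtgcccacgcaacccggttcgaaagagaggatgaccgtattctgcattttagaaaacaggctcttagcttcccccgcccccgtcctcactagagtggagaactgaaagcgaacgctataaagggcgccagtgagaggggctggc
IL32: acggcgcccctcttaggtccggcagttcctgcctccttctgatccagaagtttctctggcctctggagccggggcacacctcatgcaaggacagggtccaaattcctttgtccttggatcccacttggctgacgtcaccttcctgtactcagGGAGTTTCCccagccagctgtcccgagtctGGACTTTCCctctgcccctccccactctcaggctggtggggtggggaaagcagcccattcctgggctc
CXCL8: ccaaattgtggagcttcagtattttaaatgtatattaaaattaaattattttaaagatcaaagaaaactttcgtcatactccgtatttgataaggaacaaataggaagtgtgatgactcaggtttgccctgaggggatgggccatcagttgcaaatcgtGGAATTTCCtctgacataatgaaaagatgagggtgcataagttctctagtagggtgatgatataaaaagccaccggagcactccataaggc
NFKBIZ and CXCL8 share the site GGAATTTCC, 222 and 91 bases before the start, and IL32 holds GGAGTTTCC and GGACTTTCC, 98 and 68 bases before it. Of the 20 tested list members with a promoter in the table, 11 held the motif (55.0%), against 5.48% of all promoters searched. The list was assembled from known targets, so this share describes the list and not these cells.

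Most tested immediate early genes and ERK outputs rose, with exceptions. Of 29 genes listed, 20 passed the filter, 16 rose and 2 fell, beside 16.5% and 19.6% of all genes tested. The median log2 change was 0.60, and 5 of the 20 were under 1 RPKM in LNCaP alone. All 20 reached 1 RPKM in coculture under enzalutamide, and at most 17 did in any other group. The filter thus favoured rises, and the count over the list is no independent sign of one. EGR1, a zinc finger transcription factor induced within minutes of ERK activation, had 22.1 RPKM in both coculture libraries, against 0.349 and 0.545 RPKM in LNCaP alone (log2 4.0, adjusted p = 4.4e-09). FOS, a subunit of AP-1, had 12.6 and 12.9 RPKM, against 0.438 and 0.688 RPKM (log2 3.14). The phosphatase gene DUSP5, a nuclear ERK inhibitor, had 4.84 and 4.61 RPKM, against 0.275 and 0.765 RPKM (log2 1.93). The 2 members that fell were MYC, the proto-oncogene, with 8.93 and 9.33 RPKM against 16.8 and 16.9 RPKM (1.84-fold lower, log2 -0.82), and SPRY4, a feedback inhibitor of receptor tyrosine kinases, with 3.36 and 3.43 RPKM against 6.73 and 6.31 RPKM (log2 -0.77). DUSP6, a cytoplasmic ERK phosphatase, was too low to be tested, at 0.988 and 0.779 RPKM in coculture and 0.190 and 0.278 RPKM in LNCaP alone. EGFR, the receptor of epidermal growth factor, rose to 18.6 and 17.2 RPKM in coculture, against 5.23 and 5.04 RPKM in LNCaP alone (3.49-fold, log2 1.62), as did ERRFI1, an inhibitor of that receptor (log2 1.15).

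The promoter of EGR1 is shown for its CArG boxes, sites of serum response factor, in capitals, at chr5:138465229-138465478 on the plus strand of GRCh38.p14 from RefSeq.
EGR1: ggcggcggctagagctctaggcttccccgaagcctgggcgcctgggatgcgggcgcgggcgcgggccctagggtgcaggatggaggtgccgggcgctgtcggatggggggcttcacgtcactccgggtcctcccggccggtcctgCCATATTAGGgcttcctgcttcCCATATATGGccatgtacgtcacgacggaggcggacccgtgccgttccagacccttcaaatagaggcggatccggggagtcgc
The matches lie 105 and 83 bases before the start. Of 15 tested members of the list with a promoter in the table, EGR1 alone held a match in this window (6.67%), against 1.14% of all promoters.

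SPP1, the gene of the secreted protein osteopontin, and its receptor gene CD44 were below the filter; CD44 had 0.0671 and 0.0614 RPKM in coculture and 0.127 and 0.155 RPKM in LNCaP alone. A list of 11 names held SPP1 itself and 10 integrin subunits that can bind osteopontin. Of these, 5 integrin genes passed the filter and these 5 rose (median log2 0.77). Among all genes tested, 16.5% rose and 19.6% fell. ITGAV, the alpha V subunit, had 41.4 and 42.3 RPKM, against 20.5 and 20.2 RPKM (2.06-fold, log2 1.01, adjusted p = 6.3e-07). ITGB6, which pairs with alpha V, had 2.42 and 2.25 RPKM, against 0.0212 and 0 RPKM, which rests on 2 reads in LNCaP alone (log2 1.72). It reached 1 RPKM in no other group and so passed the filter only through the coculture under enzalutamide, which fixed the direction of its difference. The count of rises over the list is thus no independent sign of a rise.

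Androgen-activated targets did not move together. Of 40 listed, 39 passed the filter, 12 rose, 14 fell and 13 did not pass, with a median log2 change of -0.07. Among all genes tested, 16.5% rose and 19.6% fell. KLK3, which encodes prostate-specific antigen, had 178 and 179.7 RPKM in coculture, against 55.6 and 61.5 RPKM in LNCaP alone (3.06-fold, log2 1.60, SE 0.0537, adjusted p = 3.0e-08). KLK2, a neighbouring kallikrein, had 4.50 and 4.20 RPKM, against 1.35 and 1.20 RPKM (3.41-fold, log2 1.23), and its similarity to KLK3 makes the split of reads between them uncertain. TMPRSS2, a membrane serine protease, had 73.1 and 74.0 RPKM, against 24.4 and 26.2 RPKM (2.91-fold, log2 1.505). For these 3 genes the libraries were apart, and the coculture was still below drug-free LNCaP alone: KLK3 was at 14.98% of LNCaP alone under DMSO, against 4.90% for LNCaP alone under enzalutamide, KLK2 at 8.47% against 2.48%, and TMPRSS2 at 72.4% against 24.9%. NDRG1, a stress-responsive gene that hypoxia also induces, had 179 and 177 RPKM, against 21.2 RPKM in both libraries of LNCaP alone (8.40-fold, log2 3.01). The promoter of KLK3 (chr19:50854665-50854914, plus strand, RefSeq GRCh38.p14) is shown for AGAACA, a core of the androgen response element, searched on both strands and set in capitals.
KLK3: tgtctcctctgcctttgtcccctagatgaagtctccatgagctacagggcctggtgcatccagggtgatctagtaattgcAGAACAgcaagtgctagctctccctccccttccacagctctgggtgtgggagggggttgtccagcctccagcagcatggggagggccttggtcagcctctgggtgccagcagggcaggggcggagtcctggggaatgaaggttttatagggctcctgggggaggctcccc
The match lies 170 bases before the start. It was found in 2 of the 28 tested androgen-activated targets with a promoter in the table (7.14%), against 12.4% of all promoters searched.

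PMEPA1, an androgen- and TGF-beta-induced gene, rose by 1.68, and the multidrug transporter gene ABCC4 by 1.73, on the log2 scale.

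Other targets fell further below the level that enzalutamide alone gave. SLC45A3, the sugar-transporter-like protein prostein, had 20.7 and 20.5 RPKM in coculture, against 37.4 and 36.5 RPKM in LNCaP alone (1.79-fold lower, log2 -0.81, SE 0.0318, adjusted p = 8.6e-08). Relative to LNCaP alone under DMSO, SLC45A3 stood at 15.2% in coculture, against 27.2% for LNCaP alone under enzalutamide. FKBP5, a co-chaperone of steroid receptors, had 2.66 and 2.54 RPKM, against 2.77 and 2.84 RPKM, and did not pass (log2 -0.08, SE 0.0546, adjusted p = 0.28). For the list counts that follow, 19.6% of all genes tested fell and 16.5% rose. Of the 12 tested partners in androgen signalling, 8 fell and 1 rose, among the falls FOXA1, a pioneer factor (log2 -0.29), and the heat-shock co-chaperone gene FKBP4 (log2 -0.50). Of 9 tested androgen-repressed genes, 5 fell and 2 rose; UGT2B17, which glucuronidates androgens and has near-identical family members, had 63.8 and 64.0 RPKM, against 84.8 and 89.5 RPKM (log2 -0.44). SRD5A3, a steroid 5-alpha-reductase family member, had 43.3 and 41.5 RPKM, against 12.9 and 13.3 RPKM (3.24-fold, log2 1.62).

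**Figure D2:**
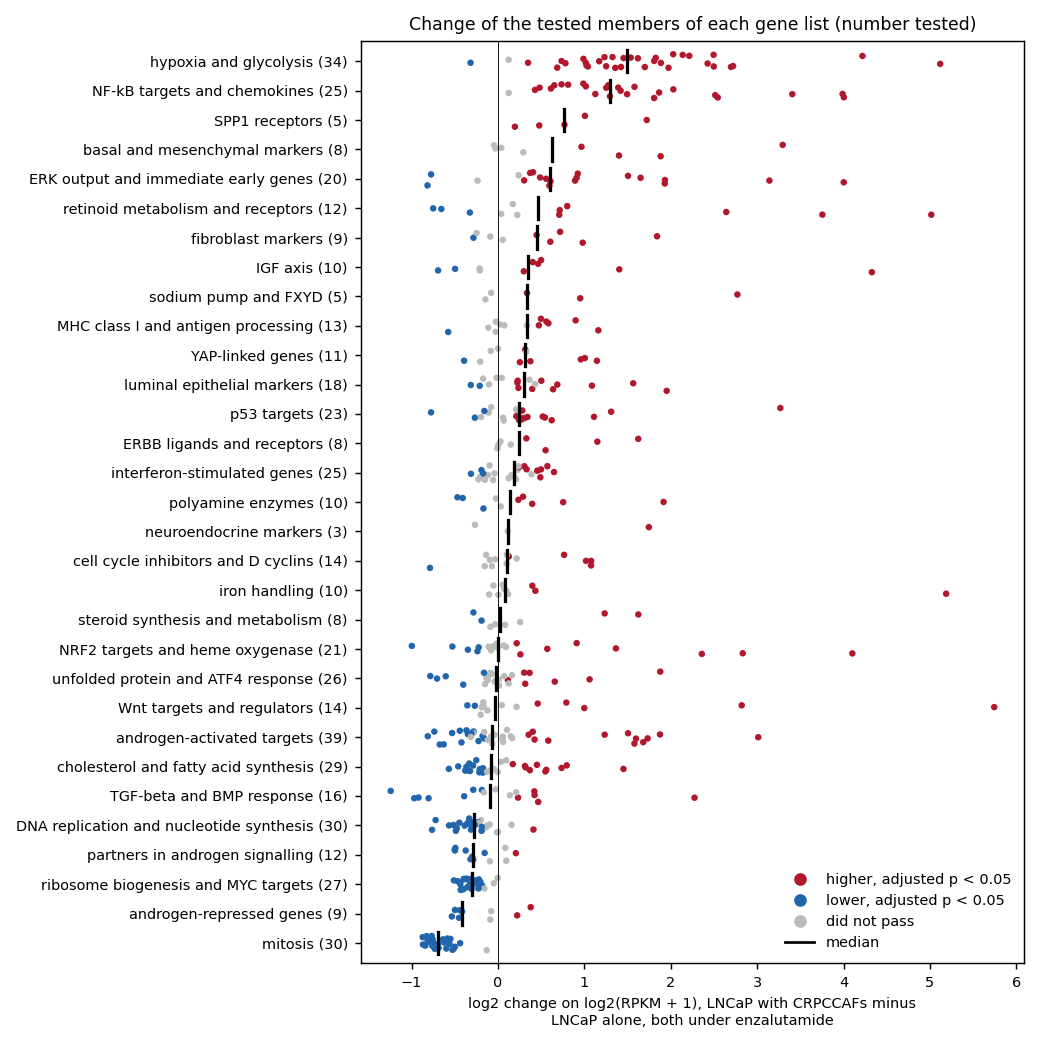
Log2 change, LNCaP with CRPCCAFs minus LNCaP alone under enzalutamide, of each tested member of 31 gene lists, ordered by list median (black bar). Red points passed as higher, blue as lower and grey did not pass; hypoxia and NF-kB genes lie almost wholly to the right, mitosis genes to the left, and androgen-activated targets on both sides of 0.

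Mitosis genes fell. All 30 listed were tested, 29 fell and none rose, with a median log2 change of -0.69 beside the 19.6% of all genes that fell. MKI67, the proliferation marker Ki-67, had 1.34 and 1.41 RPKM in coculture, against 3.05 and 3.04 RPKM in LNCaP alone (2.21-fold lower, log2 -0.77, SE 0.0733, adjusted p = 4.0e-05). CDK1, the mitotic kinase, had 7.38 and 7.65 RPKM, against 12.9 and 12.6 RPKM (1.70-fold lower, log2 -0.69). PLK1, another mitotic kinase, had 3.02 and 3.29 RPKM, against 6.29 and 6.91 RPKM (2.09-fold lower, log2 -0.87). The groups did not overlap for these kinases or for MKI67, and KIF23, a kinesin of cytokinesis, was the member that did not pass (adjusted p = 0.17). Among 30 DNA replication and nucleotide synthesis genes, 20 fell and 1 rose, with a smaller median of -0.27; RRM2, a ribonucleotide reductase subunit, averaged 3.90 ± 0.399 RPKM in coculture and 5.99 ± 0.440 RPKM in LNCaP alone (log2 -0.51), and CCNE1, which encodes cyclin E1, was the rise (log2 0.41). That rise did not pass without either coculture library (adjusted p = 0.052 and 0.051) or without LNCaP alone library 1 (log2 0.23, adjusted p = 0.063). Of 27 ribosome biogenesis and MYC target genes, 23 fell and none rose (median -0.31), NCL, encoding nucleolin, by 0.43 on the log2 scale.

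Some inhibitors of the cell cycle rose. Of 14 tested cell cycle inhibitors, D cyclins and their partners, 5 rose and 1 fell, with a median log2 change of 0.10. Over all genes tested, 16.5% rose and 19.6% fell. CDKN1A, encoding p21, had 189 and 190.4 RPKM in coculture, against 86.9 and 87.5 RPKM in LNCaP alone (2.17-fold, log2 1.11, SE 0.0384, adjusted p = 3.6e-08). CDKN1B, encoding p27, had 92.0 and 95.6 RPKM, against 43.0 and 44.9 RPKM (2.13-fold, log2 1.08). Both coculture libraries exceeded both of LNCaP alone for either gene. CCND1, encoding cyclin D1, differed little, with 117 RPKM in both coculture libraries against 108 and 107 RPKM (log2 0.12, adjusted p = 0.011), a call that was lost without coculture library 1 (adjusted p = 0.058) or LNCaP alone library 2 (adjusted p = 0.055). Of 23 p53 targets, 13 rose and 3 fell, with GDF15, a secreted stress cytokine, at 812 and 807 RPKM against 80.5 and 85.7 RPKM (9.73-fold, log2 3.27), and SESN1, a sestrin, lower (log2 -0.78).

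Retinoid enzymes were among the strongest changes. CYP26A1, which degrades retinoic acid and is induced by it, had 32.3 and 31.7 RPKM in coculture, from 2975 reads, and 0.0401 and 0 RPKM in LNCaP alone, from 2 reads (log2 5.02, SE 0.0879, adjusted p = 5.0e-10). DHRS3, a retinal reductase, had 76.3 and 74.2 RPKM, against 4.84 and 4.46 RPKM (16.2-fold, log2 3.75), and ALDH1A3, which makes retinoic acid, had 75.8 and 78.8 RPKM, against 11.6 and 11.5 RPKM (6.70-fold, log2 2.64). These 3 genes were far apart between the groups, whereas the retinol dehydrogenase gene RDH11 fell (log2 -0.66). Of 20 retinoid genes listed, 12 passed the filter, 6 rose and 3 fell, beside 16.5% and 19.6% of all genes tested.

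Genes of oxidative defence split. HMOX1 rose as given above, and AKR1C1, an aldo-keto reductase, had 10.6 and 11.7 RPKM in coculture, against 0.541 and 0.881 RPKM in LNCaP alone (log2 2.83). AKR1C1 and its neighbours are near-identical, so the values of single copies are uncertain. NQO1, a quinone reductase and a standard NRF2 target, fell, with 62.1 and 64.3 RPKM against 127 RPKM in both libraries of LNCaP alone (2.01-fold lower, log2 -0.998, adjusted p = 1.0e-07). Of 21 tested genes of this list 8 rose and 5 fell, beside 16.5% of all genes tested that rose and 19.6% that fell. Nothing particular to the list is read from its count of falls. In lipid synthesis, SCD, the stearoyl-CoA desaturase, had 278 and 273 RPKM, against 100.2 and 99.98 RPKM in LNCaP alone (2.75-fold, log2 1.45). Of 29 tested genes of cholesterol and fatty acid synthesis, 10 rose and 13 fell.

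Among SMAD-regulated genes, the ID genes, encoding inhibitors of helix-loop-helix factors and induced by bone morphogenetic proteins, fell: ID1 had 93.5 and 95.1 RPKM in coculture, against 175 and 184 RPKM in LNCaP alone (1.90-fold lower, log2 -0.92), and ID2 had 12.7 and 12.6 RPKM, against 25.7 and 25.8 RPKM (2.03-fold lower, log2 -0.97). BAMBI, a decoy receptor for these ligands, rose, with 237 and 248 RPKM against 48.6 and 50.04 RPKM (4.92-fold, log2 2.27). In all 5 of 16 tested members of the TGF-beta and BMP list rose and 7 fell, beside 16.5% and 19.6% of all genes tested. The sodium pump subunit gene ATP1B1 had 1394 and 1384 RPKM, against 202 and 204 RPKM (6.85-fold, log2 2.77, adjusted p = 1.6e-10).

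Surface and cytoskeletal genes of epithelia rose in part. Of MHC class I and antigen processing genes, 6 of 13 tested rose and 1 fell. Of 18 luminal epithelial markers, 10 rose and 2 fell, led by ELF3, an epithelial ETS factor, with 69.2 and 71.7 RPKM against 16.8 and 18.1 RPKM (4.03-fold, log2 1.95). LAMB3, a laminin chain of basal epithelia, rose to 10.8 and 11.4 RPKM, against 0.111 and 0.370 RPKM (log2 3.30). Of 25 tested interferon-stimulated genes, 8 rose and 3 fell, none by more than 0.65 on the log2 scale. Beside the counts of these lists, 16.5% of all genes tested rose and 19.6% fell.

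Some genes that fibroblasts also express were higher in coculture. FN1, encoding fibronectin, had 187 and 179 RPKM in coculture, against 51.7 and 48.9 RPKM in LNCaP alone (3.63-fold, log2 1.84, adjusted p = 1.5e-08). VIM, the intermediate filament vimentin, had 12.5 and 11.8 RPKM, against 2.52 and 2.61 RPKM (4.74-fold, log2 1.88), and COL1A1, a collagen I chain, had 12.2 and 12.6 RPKM, against 7.47 and 8.14 RPKM (1.59-fold, log2 0.61). Of 25 fibroblast markers, 9 passed the filter, 5 rose and 1 fell, beside 16.5% and 19.6% of all genes tested. Of the 9, 8 reached 1 RPKM in coculture and 6 in LNCaP alone, so nothing is read from the count. The summed level of all 25 was 279.6 to 289 RPKM in coculture and 148 to 149.7 RPKM in LNCaP alone. The 16 markers below the filter, among them COL1A2, COL3A1, DCN, LUM, SPARC, POSTN, THY1 and PDGFRA, summed to 0.816 to 0.877 RPKM in coculture and 0.840 to 0.931 RPKM in LNCaP alone, none of them above 0.249 RPKM in coculture. COL1A2 and POSTN were at 0 in both coculture libraries. How far reads of mouse fibroblasts could be counted to human genes was not tested. Of 11 macrophage and leukocyte markers only CD68, a lysosomal protein, passed the filter, with 22.3 and 21.5 RPKM against 4.53 and 5.55 RPKM, and PTPRC, TYROBP and CD3E were at 0 in both coculture libraries. The 10 others summed to 1.17 to 1.54 RPKM in coculture and 0.743 to 0.811 RPKM in LNCaP alone. Among them CSF1R, a macrophage growth factor receptor, had 31 and 40 reads in coculture, against 0 and 2 reads in LNCaP alone, and ITGAM, an integrin subunit of myeloid cells, had 21 and 6 reads, against none. Of 8 endothelial markers only VWF did, with a log2 difference of 0.31 that missed the threshold when any 1 of the 4 libraries was left out (adjusted p = 0.060 to 0.11), and PECAM1 was at 0 in both coculture libraries. The 7 others summed to 0.763 to 1.03 RPKM in coculture and 0.671 to 0.868 RPKM in LNCaP alone, and KDR, a VEGF receptor, had 9 and 13 reads in coculture, against 0 and 1 read. The part of such cells in the results was not tested.

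The next question was which of these differences depended on the drug. The CRPCCAF effect, coculture minus LNCaP alone, was larger or smaller under enzalutamide than under DMSO in 1125 of 16042 genes (7.01%), with a positive difference in 590 (3.68%) and a negative one in 535 (3.33%). The total was 634 or 580 without coculture library 1 or 2 under enzalutamide, 616 or 673 without LNCaP alone library 1 or 2 under enzalutamide, and 665 or 670 without LNCaP alone library 1 or 2 under DMSO. CP had the largest positive difference: its effect was 5.19 under enzalutamide and 1.71 under DMSO (difference 3.48, SE 0.102, adjusted p = 6.0e-07). It averaged 71.5 ± 0.00758 RPKM in coculture under enzalutamide and 4.11 ± 0.393 RPKM in coculture under DMSO. NFKBIZ followed the same pattern, with an effect of 3.99 under enzalutamide and 2.03 under DMSO (difference 1.96, adjusted p = 6.1e-05), as did IGFBP5 (difference 2.60), LCN2 (2.08) and KITLG, encoding the ligand of the receptor KIT (1.85). MAN1A1, a Golgi mannosidase, had 10.2 and 11.02 RPKM in coculture under enzalutamide, against 1.48 and 1.81 RPKM in LNCaP alone; under DMSO it had 1.18 and 0.890 RPKM in coculture, against 1.03 and 0.820 RPKM in LNCaP alone, so a rise was seen under the drug (log2 2.14) and its effect under DMSO was 0.08. Of the 25 tested NF-kB genes, 14 had a positive difference and none a negative one, and of the 34 hypoxia genes 16 had a positive and 2 a negative difference, beside 3.68% and 3.33% of all genes. All 25 NF-kB genes reached 1 RPKM in coculture under enzalutamide and 17 did in coculture under DMSO, so the filter favoured a positive difference and nothing is read from that count. LDHA had an effect of 2.70 under enzalutamide and 1.43 under DMSO (difference 1.26, adjusted p = 5.7e-06); its level in coculture was lower under enzalutamide, 763 ± 4.94 RPKM, than under DMSO, 1020.0 ± 18.8 RPKM, and in LNCaP alone it was lower still, 117 ± 2.97 RPKM, against 378 ± 19.2 RPKM under DMSO.

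**Figure D3:**
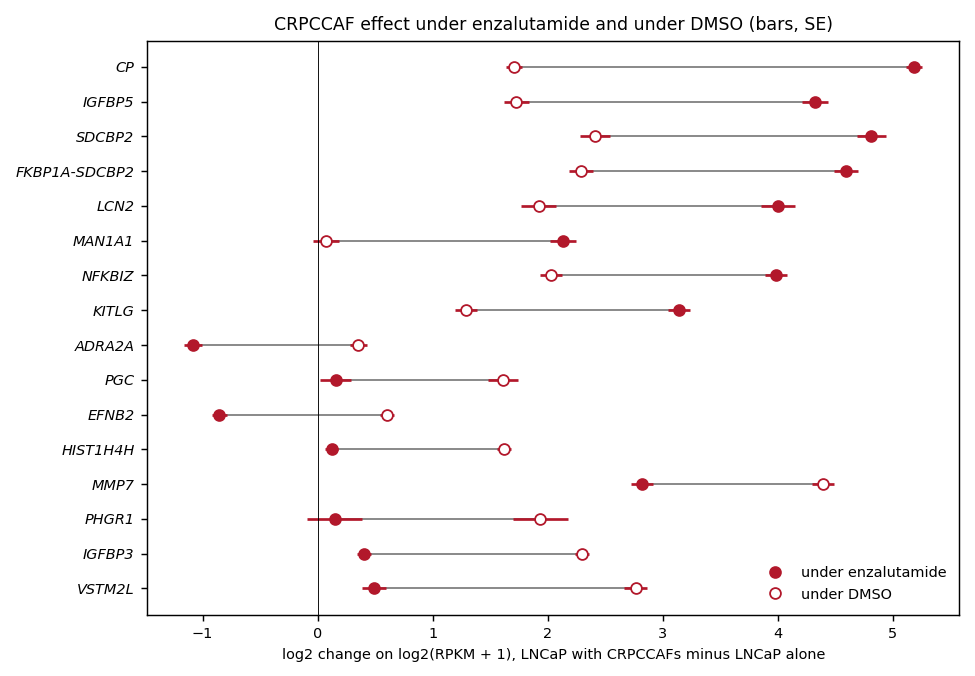
CRPCCAF effect (log2 change on log2(RPKM + 1), LNCaP with CRPCCAFs minus LNCaP alone) under enzalutamide (filled) and under DMSO (open) for the 8 largest positive and 8 largest negative differences, with SE bars. CP, at 5.19 and 1.71, stands at the top, VSTM2L, at 0.49 and 2.77, at the bottom, and EFNB2 and ADRA2A lie on opposite sides of 0.

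The largest negative differences included genes whose coculture rise was smaller under the drug. VSTM2L, an immunoglobulin-domain protein, had an effect of 0.49 under enzalutamide and 2.77 under DMSO (difference -2.27, SE 0.142, adjusted p = 3.0e-05). IGFBP3, a binder of insulin-like growth factors, had 206 and 209 RPKM in coculture under enzalutamide, against 155 and 159 RPKM in LNCaP alone, and 40.9 and 39.99 RPKM in coculture under DMSO, against 7.03 and 7.87 RPKM in LNCaP alone (difference -1.89, adjusted p = 5.9e-06). Its level under the drug was thus high with and without the fibroblasts. ADRA2A, an adrenergic receptor, and EFNB2, the ligand ephrin B2, fell in coculture under enzalutamide (log2 -1.08 and -0.85), with effects of 0.35 and 0.60 under DMSO. MMP7, the protease matrilysin, had 6.71 and 5.47 RPKM in coculture under enzalutamide, from 256 reads, and no read in either library of LNCaP alone; against a floor of 3 reads over the group that is at least 96.2-fold higher. Under DMSO it had 42.0 and 41.6 RPKM in coculture, against 1.06 and 1.01 RPKM in LNCaP alone, and the difference of its effects, -1.58 with a pseudocount of 1, turned to 0.74 with a pseudocount of 0.1 (adjusted p = 0.062), so its direction depends on that choice.

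Some androgen-activated targets also differed between the drug conditions. Of the 39 tested, 4 had a positive difference and 16 a negative one, beside 3.68% and 3.33% of all genes. Under enzalutamide 33 reached 1 RPKM in coculture and 32 in LNCaP alone, against 38 and 37 under DMSO. The added 1 thus shrinks log2 changes more under the drug, and the count was not repeated with a pseudocount of 0.1. KLK3 was among the positive ones, with an effect of 1.60 under enzalutamide and 0.74 under DMSO (difference 0.86, SE 0.0759, adjusted p = 2.0e-04), whereas for KLK2, TMPRSS2 and NDRG1 the differences of -0.09, 0.04 and -0.07 did not pass (adjusted p = 0.68, 0.77 and 0.53). KLK2 was scarce under the drug, where the added 1 makes its effect come out too small. Its difference was not rerun with a pseudocount of 0.1, so no contrast with KLK3 is read from it. SLC45A3 (difference -0.78) had an effect of -0.03 under DMSO, and FKBP5 an effect of 0.57 (difference -0.65). The falls of mitosis genes did not differ detectably by drug on log2(RPKM + 1): none of 30 had a difference past limma's threshold, and 5 did at an unadjusted p under 0.05, beside 3496 of all 16042 genes. Under enzalutamide these genes summed to 107 to 108 RPKM in coculture and 192 to 195 RPKM in LNCaP alone. Under DMSO the sums were 627 to 636 RPKM and 950 to 954 RPKM. The added 1 thus shrinks the effect more under the drug, and these differences were not rerun with a pseudocount of 0.1. For CDK1 the difference was -0.04 (SE 0.0579, adjusted p = 0.74). MYC did differ, with an effect of -0.82 under enzalutamide and -0.07 under DMSO (difference -0.74, adjusted p = 1.0e-04).

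**Figure D4:**
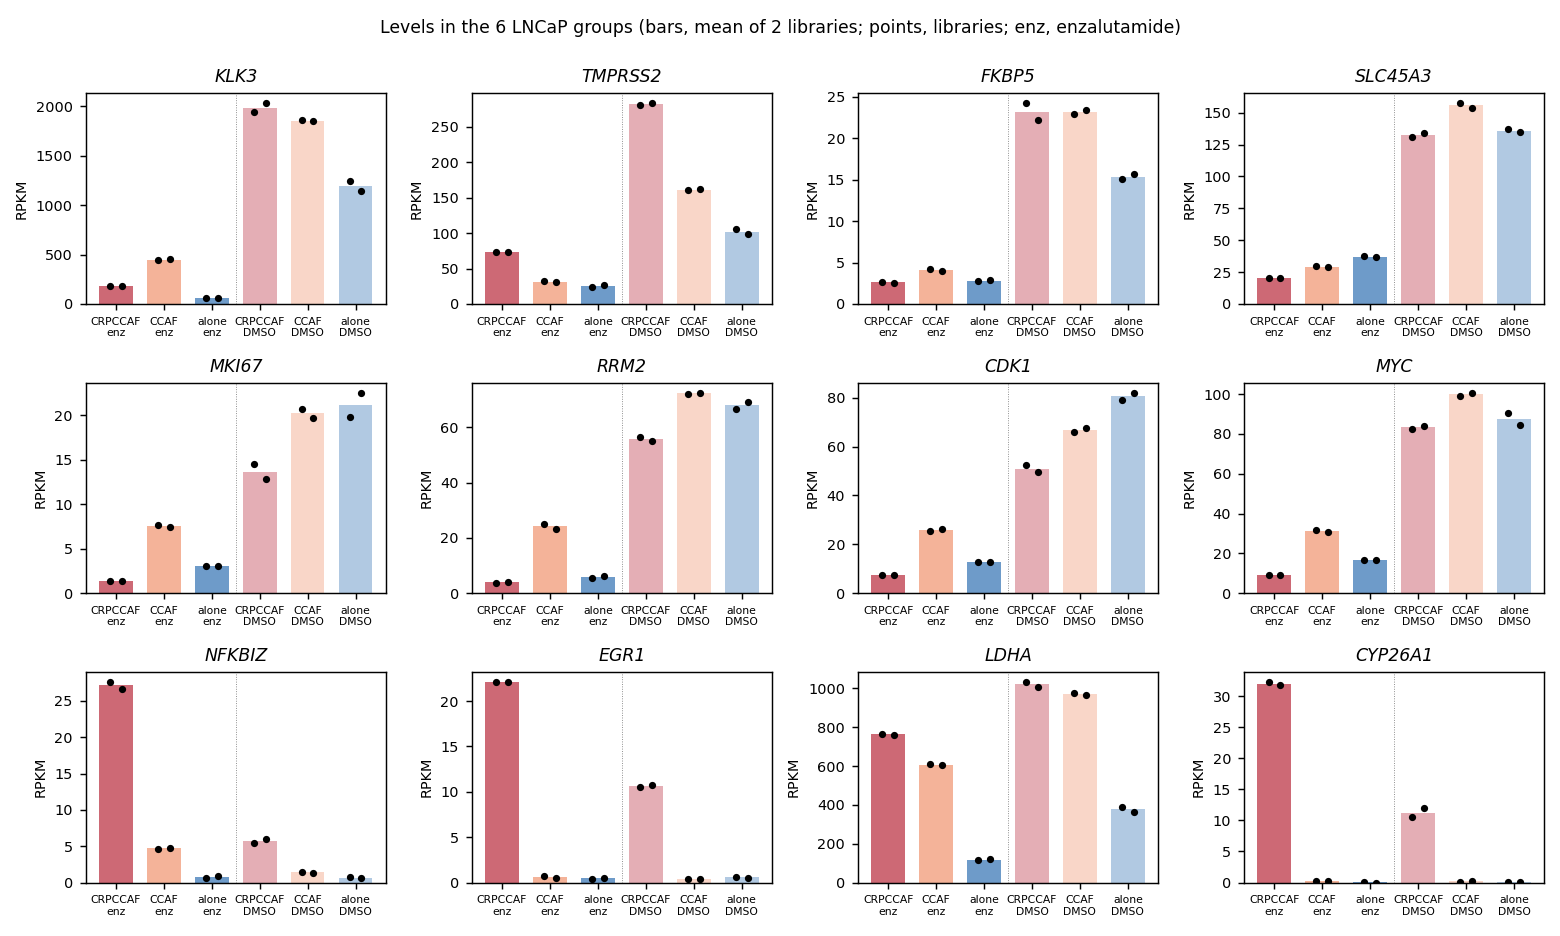
RPKM of 12 genes in the 6 LNCaP groups, bars the mean of 2 libraries and points the libraries, with the enzalutamide groups left of the dotted line and the DMSO groups right of it. Among the enzalutamide groups, KLK3, MKI67, RRM2, CDK1 and MYC are highest in the CCAF coculture, at 449 RPKM for KLK3, while NFKBIZ, EGR1 and CYP26A1 are highest of all 6 groups in the CRPCCAF coculture under enzalutamide.

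The other coculture under enzalutamide was LNCaP with CCAFs. The CRPCCAF coculture differed from it in 5197 of 16042 genes (32.4%), 2226 of them higher (13.9%) and 2971 lower (18.5%). The proliferation genes set the 2 apart: all 30 mitosis genes and 29 of 30 replication genes were lower with CRPCCAFs, with medians of -1.46 and -1.18, beside a median of -0.024 for all genes. RRM2 had 3.61 and 4.18 RPKM with CRPCCAFs, against 25.1 and 23.4 RPKM with CCAFs (6.22-fold lower, log2 -2.37, SE 0.0640, adjusted p = 1.6e-08). MKI67 averaged 1.38 ± 0.0534 RPKM with CRPCCAFs and 7.55 ± 0.124 RPKM with CCAFs (5.49-fold lower, log2 -1.85), and MYC 9.13 ± 0.285 RPKM and 31.2 ± 0.482 RPKM (3.42-fold lower, log2 -1.67). For these genes LNCaP alone under enzalutamide lay between the cocultures. KLK3 had 178 and 179.7 RPKM with CRPCCAFs, against 444 and 454 RPKM with CCAFs (2.51-fold lower, log2 -1.32, adjusted p = 1.5e-07), whereas TMPRSS2 averaged 73.5 ± 0.596 RPKM with CRPCCAFs and 31.6 ± 0.672 RPKM with CCAFs (log2 1.20, adjusted p = 8.2e-08).

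Several of the rises against LNCaP alone were not matched with CCAFs. CYP26A1 had 32.3 and 31.7 RPKM with CRPCCAFs, against 0.239 and 0.173 RPKM with CCAFs (log2 4.77, adjusted p = 8.0e-09). IGFBP5 averaged 22.2 ± 0.993 RPKM with CRPCCAFs and 0.198 ± 0.0122 RPKM with CCAFs (log2 4.28), LCN2 23.5 ± 0.3997 RPKM and 0.429 ± 0.110 RPKM (log2 4.10), and HMOX1 125 ± 0.877 RPKM and 6.33 ± 0.907 RPKM (log2 4.11). In LNCaP alone, HMOX1 averaged 6.33 ± 0.114 RPKM. EGR1 had 22.1 RPKM in both CRPCCAF libraries, against 0.757 and 0.513 RPKM with CCAFs (log2 3.83). Of 25 tested NF-kB genes, 23 were higher and 1 lower with CRPCCAFs, but 25 reached 1 RPKM with CRPCCAFs and 13 with CCAFs, so the filter favoured that direction and nothing is read from the count. LDHA differed little between the cocultures, with 767 and 759.9 RPKM with CRPCCAFs, against 608 and 603 RPKM with CCAFs (1.26-fold, log2 0.33).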

How the data were processed

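RNA of LNCaP cells was extracted with Trizol and sequenced from NEBNext Ultra libraries on a HiSeq instrument, per the labels' protocols. The authors deposited RPKM per gene symbol and library, per the file headers. HISAT2, HTSeq, DESeq2, hg19 and mm10 appear in the submitters' processing notes with no role or version; whether fibroblast reads were set apart from human ones is unstated there. Of 44591 names, 27 calendar dates were removed. Values are not counts, so limma 3.58.1 in R 4.3.3 was fitted to log2(RPKM + 1) with a mean-variance trend over 6 groups of 2 libraries (6 residual degrees of freedom) and 16042 genes at 1 RPKM or more in at least 2 of 12 libraries, two-sided, with Benjamini-Hochberg adjustment within a comparison and a threshold of 0.05. The test was also run on simulated data, whose outcome is not reported here and from which nothing is read. The deposited RPKM steps gave the number of reads (all 25005 genes above 0 in at least 6 libraries solved, within 0.05 reads of whole), and depth was 17850431 to 22187880 reads per library. Intervals and floors on reads cover counting error only. The 3 comparisons share libraries.

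The samples were taken by group label, and that choice and the 33 gene lists were made with earlier results of these data known. Genes named are the 15 largest rises and 15 largest falls (adjusted p under 0.05, mean of at least 1 RPKM in either group, libraries apart, official symbol that is no clone, locus or small RNA name), up to 4 members per list with the smallest p, 28 set genes, the 8 largest differences in each direction of the other 2 comparisons, and list members described with their value; not all are printed, and some are not reported here. Promoters were matched by symbol to the RefSeq table (GRCh38.p14). Alternatives tried: each library left out, only the 4 libraries of a comparison, a block for the replicate number, scaling with ratio-based size factors, no trend, a pseudocount of 0.1 and no low-value filter. Replicate numbers are a label only, since libraries with the same number did not deviate together.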

Additional observations from a re-analysis of the deposited data

Results flagged for a closer look

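Each result here stood out because limma's test of the difference between the CRPCCAF effect under enzalutamide and under DMSO passed an adjusted p of 0.05; values are log2 differences, enzalutamide minus DMSO, from 2 libraries a group. Positive differences were 3.48 for CP, 2.60 for IGFBP5, 2.40 for SDCBP2, 2.30 for FKBP1A-SDCBP2, 1.72 for NMB, 1.85 for KITLG, 1.32 for GDF15, 1.14 for C8orf4 and 0.53 for HMOX1. NF-kB genes gave 2.08 for LCN2, 1.96 for NFKBIZ, 1.57 for IL1B, 1.42 for IL32, 1.22 for CXCL8 and 0.36 for NFKBIA. Genes of hypoxia and glycolysis gave 1.39 for NDUFA4L2, 1.26 for LDHA, 0.91 for PLOD2, 0.66 for VEGFA and 0.56 for PGK1. Retinoid and redox enzymes gave 1.83 for ALDH1A3, 1.47 for CYP26A1, 0.66 for DHRS3 and 1.56 for AKR1C1. Steroid and androgen-linked genes gave 0.86 for KLK3, 0.99 for ABCC4, 1.10 for PMEPA1, 1.22 for SRD5A3 and 1.08 for UGT2B17. Further positive differences were 2.06 for MAN1A1, 1.51 for LAMB3, 1.13 for EGR1, 1.04 for CD68, 0.99 for ITGB6, 0.65 for ITGAV, 0.56 for CDKN1B, 0.49 for CDKN1A and 0.37 for SCD. ITGB6 passed the filter only through the coculture under enzalutamide, which favoured a positive difference, so nothing is read from its direction. It rests on 2 reads in LNCaP alone under enzalutamide. DDIT4 gave 0.71 and AOC1 gave 1.56.

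Negative differences were -0.74 for CYR61, -2.27 for VSTM2L, -1.89 for IGFBP3, -1.58 for MMP7, -1.46 for EFNB2 and -1.44 for ADRA2A. The direction for MMP7 depends on the pseudocount, since its difference was 0.74 with a pseudocount of 0.1. SMAD-linked genes gave -1.12 for SMAD9, -0.74 for ID1, -0.74 for ID2 and -0.40 for BAMBI. Androgen targets gave -0.78 for SLC45A3 and -0.65 for FKBP5, and feedback inhibitors gave -0.99 for SPRY4 and -0.62 for ERRFI1. MYC gave -0.74. The remaining negative differences were -1.003 for QSOX1, -0.73 for MCTP2, -0.53 for SPON2, -0.45 for NUCB2, -0.37 for SESN1, -0.34 for RDH11, -0.32 for NQO1 and -0.19 for ATP1B1.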

How the results depend on the processing

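With 2 libraries a group, the count of genes in the comparison with LNCaP alone stayed within 1.5 times of 5788 under every alternative run, at 4195 to 4402 with 1 library left out. The difference between drug conditions was the least stable: 580 to 1121 genes, 298 to 561 positive and 281 to 560 negative, with 1 library left out. With the replicate number as a block, 5729, 981 and 5136 genes passed in the comparisons with LNCaP alone, between drug conditions and with CCAFs; same-numbered libraries had correlations of -0.062 to 0.084. A pseudocount of 0.1 raised the genes at 2-fold or more to 821, and to 704 against CCAFs, against 416. It moved list medians to -0.84 for mitosis, 1.74 for hypoxia, 2.56 for NF-kB, 0.46 for MHC class I, 0.80 for ERK, 0.83 for retinoid, 1.35 for basal and 0.66 for fibroblast genes, and turned the MMP7 difference to 0.74; the alternative differs from the main values in the added constant alone. The MHC class I median was 0.19 to 0.48 with 1 library left out. Of the named genes' settings, 12 lost the call, all for VWF, CCND1 and CCNE1 in the comparison with LNCaP alone. In the comparisons between drug conditions and with CCAFs, single genes were rerun only if among the largest differences in either direction. Whether the remaining flagged differences between drug conditions keep their calls under these alternatives was not tested. Genes resting on 2 or 3 reads in LNCaP alone have folds limited by depth.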

Other observations

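Further lists were mixed in LNCaP with CRPCCAFs under enzalutamide against LNCaP alone under enzalutamide; of all 16042 genes, 16.5% were called higher and 19.6% lower, and nothing particular to these lists is read from their counts. Of 11 tested YAP-linked genes, 6 rose and 1 fell, among them CYR61, a secreted matricellular protein, with 15.8 and 15.1 RPKM in coculture, against 6.78 and 6.11 RPKM in LNCaP alone (2.40-fold, log2 1.14, limma adjusted p = 1.5e-06). Of 10 polyamine enzyme genes, 5 rose and 3 fell; AOC1, a diamine oxidase, had 25.7 RPKM in both coculture libraries, against 6.31 and 5.85 RPKM in LNCaP alone (4.23-fold, log2 1.92). Of 26 genes of the unfolded protein and ATF4 response, 7 rose and 5 fell. DDIT4, an inhibitor of mTORC1 signalling, had 299 and 294 RPKM in coculture, against 77.5 and 82.5 RPKM in LNCaP alone (3.71-fold, log2 1.88), while PSAT1, of serine synthesis, had 34.3 and 36.3 RPKM, against 60.7 and 62.3 RPKM (1.74-fold lower, log2 -0.78). Of 10 tested iron handling genes, 3 rose and none fell. FTH1, the ferritin heavy chain and a member of the NRF2 list, had 3683 and 3751 RPKM in coculture, against 1977 and 1978 RPKM in LNCaP alone (1.88-fold, log2 0.91).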
